A study of Rattus norvegicus with 22 samples.

Results

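Serpins and plasminogen activators, 2 linked families of extracellular proteins, were examined in the kidney of rats with polycystic disease. The 7 genes were Serpine2 (protease nexin 1, Entrez gene 29366), Serping1 (C1 inhibitor, 295703), Serpinf1 (pigment epithelium-derived factor, PEDF, 287526), Serpinh1 (the collagen chaperone HSP47, 29345), Plau (urokinase, 25619), Plaur (the urokinase receptor, 50692) and Plat (tissue plasminogen activator, 25692). They are 7 of the 17334 genes listed for each rat. Their names were taken up after earlier results of the same rats were known, in which Serping1 was high after CM, so they were chosen by the measured values of the CM group against the untreated group. These values are therefore given as a description, without a test.

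The data came from whole left kidney of 22 male PKD/Mhm (Cy/+) rats at 8 months of age. All of them, the untreated rats included, carry 1 copy of the Cy mutation, a missense change of Anks6, and were told apart from non-cystic animals by palpation of the abdomen, so no healthy kidney is among them. No treatment was given to 6 rats. Another 6 received human adipose-derived stromal cells (ASC) intraperitoneally (i.p.) and a further 6 received these cells intravenously (i.v.), injected once a month for 6 months. The last 4 are labelled CM, the conditioned medium, and the paper uses this abbreviation for medium from ASC. The medium was also given once a month for 6 months. The route of the medium is uncertain, since the paper names i.v. in one place and i.p. in another. The human cells came from lipoaspirates. Each rat is a different animal with its own number and its own library.

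Total counts ran from 12195682 to 14734772 per rat, and markers of proximal tubule, podocyte, endothelium and collecting duct were present in all 22 rats. In 4 of the 6 i.v. ASC rats (3, 9, 10 and 13) the summed level of 6 urothelial genes lay between 36.2 and 590.2 TPM, against 6.70 to 34.3 TPM in all 18 other rats. Rat 10, at 36.2 TPM, lay close to untreated rat 23 at 34.3 TPM, while rats 3, 9 and 13 held at least 234.5 TPM. The cut was the highest rat outside the i.v. group, so only i.v. rats could be left out. Fitted differences that involve the i.v. group are given with and without these 4 rats for the 7 genes and the gene lists. In the latter case they rest on 2 i.v. rats. In whole kidney, fewer cells of a type and less RNA per cell cannot be told apart.

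Plasminogen, an inactive protein of the blood, is cut to the protease plasmin by urokinase or by tissue plasminogen activator. The urokinase receptor holds urokinase at the cell surface. Serpins are inhibitors that trap a protease in a covalent complex. Serpine2 inhibits thrombin, urokinase and plasmin. Serping1 restrains the first complement protease and kallikrein. Serpinf1 and Serpinh1 have the serpin fold but inhibit no protease, since PEDF is a secreted signalling protein and HSP47 guides procollagen in the endoplasmic reticulum. In the kidney, urokinase is made by tubule epithelium and passes into the urine.

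RefSeq promoter windows of the rat assembly GRCr8, from 250 bases before the transcription start to 50 bases after it, were found for 5 of the 7 genes by gene identifier, and 4 are shown. Serpine2 was chosen because it set the CM rats apart, Plau and Plaur because their levels ran opposite to each other across rats, and Serpinh1 because it ran with Plat. Capitals mark matches, on either strand, of the GC box GGGCGG, the heat shock element core TTCNNGAA and the AP-1 letters TGANTCA. Also searched were the TATA box core (TATAAA) and the STAT letters TTCNNNGAA. The letters give no evidence that a factor bound there.
Serpine2 (chr9:88637153-88637452, minus strand): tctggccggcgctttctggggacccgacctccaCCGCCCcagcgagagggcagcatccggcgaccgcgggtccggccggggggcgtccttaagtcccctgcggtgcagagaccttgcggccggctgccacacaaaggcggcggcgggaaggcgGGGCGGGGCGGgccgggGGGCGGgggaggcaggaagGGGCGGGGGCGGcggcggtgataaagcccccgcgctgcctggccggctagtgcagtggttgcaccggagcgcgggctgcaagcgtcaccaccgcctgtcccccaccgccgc
Plau (chr15:3511938-3512237, minus strand): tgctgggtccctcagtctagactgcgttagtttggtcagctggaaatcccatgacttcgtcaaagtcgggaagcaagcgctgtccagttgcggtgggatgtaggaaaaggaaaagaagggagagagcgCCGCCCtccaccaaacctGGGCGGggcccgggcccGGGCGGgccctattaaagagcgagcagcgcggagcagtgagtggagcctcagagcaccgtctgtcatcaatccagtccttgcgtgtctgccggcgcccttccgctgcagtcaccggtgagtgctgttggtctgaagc
Plaur (chr1:89181113-89181412, plus strand): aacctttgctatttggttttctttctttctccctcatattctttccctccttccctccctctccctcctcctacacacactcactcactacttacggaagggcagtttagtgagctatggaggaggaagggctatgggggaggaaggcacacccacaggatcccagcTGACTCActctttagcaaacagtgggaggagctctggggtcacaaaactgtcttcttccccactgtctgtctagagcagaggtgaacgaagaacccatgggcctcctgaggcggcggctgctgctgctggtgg
Serpinh1 (chr1:163062927-163063226, minus strand): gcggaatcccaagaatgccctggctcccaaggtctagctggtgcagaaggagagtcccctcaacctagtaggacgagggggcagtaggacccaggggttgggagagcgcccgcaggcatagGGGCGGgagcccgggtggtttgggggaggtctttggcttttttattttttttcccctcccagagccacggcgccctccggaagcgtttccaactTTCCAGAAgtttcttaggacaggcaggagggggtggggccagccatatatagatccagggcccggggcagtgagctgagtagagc

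The Serpine2 window held 6 GC boxes, 2 of which share a base, and 77% of its bases were G or C, more than in 97.9% of the 33469 windows of this length. At least 6 GC boxes were present in 1.15% of these windows, and at least 1 in 33.1%. Plau held 3 GC boxes, Serpinh1 held 1, and Plaur and Serpinf1 held none. The AP-1 letters, present in 7.33% of windows, were found in Plaur alone of the 5. The heat shock core, present in 8.77% of windows, was found in Serpinh1 alone, starting 35 bases before the start site. None of the 5 held TATAAA (14.2% of windows) or the STAT letters (8.87%).

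All 7 genes passed the filter on low counts. Levels between genes are compared in TPM, which scales by transcript length. Plau was the most abundant, at 698.8 ± 156 TPM (SD, n = 22), above 98.3% of the 12867 genes tested. It exceeded Serpinh1 in 22 of 22 rats, by a median ratio of 2.05. Serpinh1 (309.6 ± 61.6 TPM) and Serping1 (292.0 ± 43.1 TPM) could not be ordered, since Serpinh1 was the higher in 11 of 22 rats. Serpinf1 followed at 229.6 ± 70.4 TPM and was below Serping1 in 17 of 22 rats. Plat stood at 117.5 ± 36.9 TPM, below Serpinf1 in 20 of 22 rats. Serpine2 (13.6 ± 5.38 TPM) and Plaur (13.5 ± 3.85 TPM) were the lowest and also could not be ordered, with Serpine2 the higher in 8 of 22 rats. Urokinase RNA was thus far more abundant than that of its receptor, with a median ratio of 45.1 in untreated rats and a range of 31.8 to 61.5.

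The spread among rats differed between genes. Serping1 was the steadiest, with a highest rat 1.77 times the lowest. Serpinf1 spanned 2.92 times, Plat 3.60 times and Serpine2 5.95 times.

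**Figure D1:**
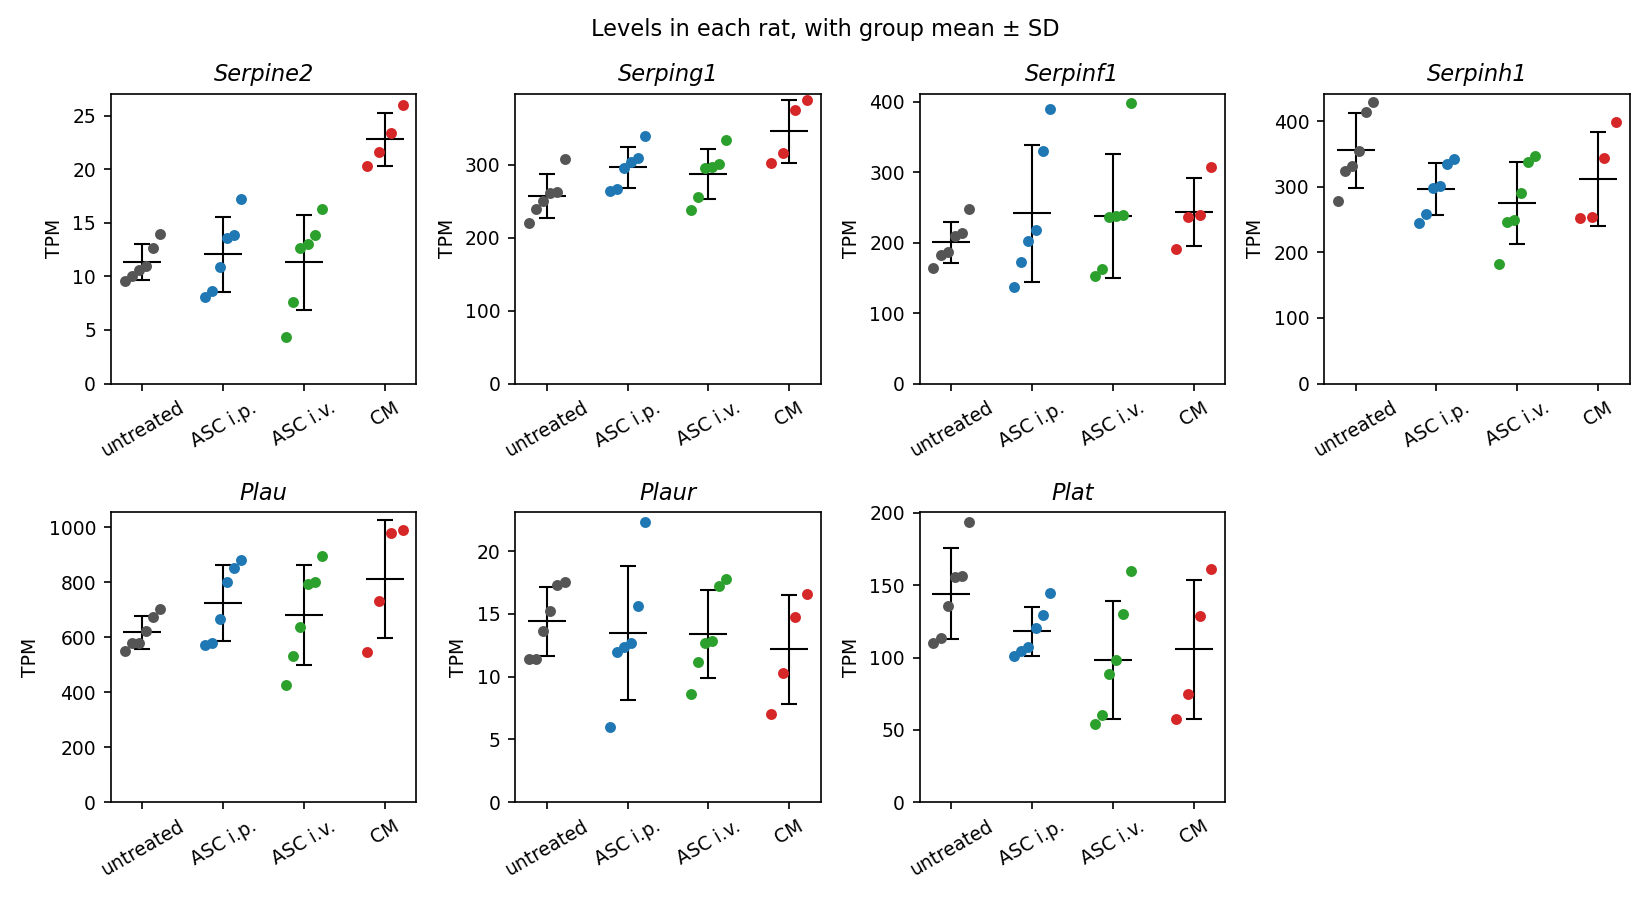
TPM (vertical axes, from 0) of the 7 genes in each of the 22 rats, by group; each point is a rat and the black bar with whiskers is the group mean ± SD. The 4 CM rats lie above all 18 other rats for Serpine2 only, and the groups overlap for Serping1, Plau, Plaur, Plat, Serpinf1 and Serpinh1.

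Serpine2 was the gene that stood apart after CM. Its level was 23.3 TPM in CM rat 2, 26.0 in rat 11, 21.6 in rat 19 and 20.3 in rat 21. In untreated rats it ran from 9.59 to 13.9 TPM with a median of 10.8. These 4 CM rats held the 4 highest levels of the 22, and no other rat exceeded 17.2 TPM. The group means were 22.8 ± 2.47 TPM (SD, n = 4) after CM and 11.3 ± 1.68 TPM (SD, n = 6) in untreated rats. The fitted log2 fold change was 1.09 (SE 0.24), and with each rat left out in turn it stayed between 1.02 and 1.17. Since the genes were chosen with this contrast known, the SE and this range are a description and do not test the difference. Of all genes tested 0.0233% (3 genes) were above all 18 other rats in all 4 CM rats. The counts behind these levels were 363 to 493 after CM and 186 to 247 in untreated rats. Summed over 7 genes, endothelial markers ran from 148.8 to 395.3 TPM after CM and from 256.5 to 373.4 TPM in untreated rats, and their part was not tested.

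Serping1 was the other gene whose CM rats lay above all untreated rats in CPM, the count scaled to the library. It stood at 426.7 CPM in CM rat 2, 403.7 in rat 11, 435.5 in rat 19 and 461.5 in rat 21, against 265.1 to 348.0 CPM in untreated rats. In TPM the groups overlapped, because CM rat 2 at 301.8 TPM was below untreated rat 24 at 308.3 TPM. The fitted log2 fold change was 0.49 (SE 0.11), given as a description only, as for Serpine2. ASC rats reached the same range, with a highest rat of 433.5 CPM in i.p. ASC rats and 458.3 CPM in i.v. ASC rats. The 2 genes that lay above the untreated rats in this way are 2 of 7, while 0.435% of all genes tested did so. Since this contrast helped to choose the genes, nothing is read from that count.

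The other 5 genes did not set the CM rats apart, but divided them among themselves. Serpine2 divided them too, at 38.6 and 39.6 CPM in rats 2 and 11 and 29.3 and 28.7 CPM in rats 19 and 21. Serping1 was lower in rats 2 and 11 than in rats 19 and 21 in CPM. Plau stood at 979.1 TPM in CM rat 2 and 988.2 in rat 11, the highest levels of the 22 rats in either unit, and at 732.1 in rat 19 and 544.9 in rat 21. Plat ran the other way, at 57.7 and 74.5 TPM in rats 2 and 11 and at 128.8 and 161.4 TPM in rats 19 and 21. The ratio of urokinase to tissue plasminogen activator was accordingly 16.98 and 13.3 in rats 2 and 11 and 5.68 and 3.38 in rats 19 and 21, with a range of 2.99 to 6.19 in untreated rats.

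Plaur was low in the same rats in which Plat was low, at 7.02 and 10.3 TPM in rats 2 and 11 against 16.6 and 14.7 TPM in rats 19 and 21. Serpinh1 showed this order too, at 253.7 and 251.7 TPM in rats 2 and 11 and 398.7 and 343.7 TPM in rats 19 and 21. Serpinf1 was highest in CM rat 2 at 307.4 TPM and lay between 191.5 and 239.3 TPM in the other CM rats, inside the untreated range of 164.5 to 246.9 TPM.

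Markers of some cell types moved with this division of the CM rats. The mean of the 5 podocyte genes was 4.27 and 4.50 log2 CPM in CM rats 2 and 11 and 6.00 and 6.69 in rats 19 and 21. The mean of the 8 fibroblast and myofibroblast genes was 5.74 and 6.20 in rats 2 and 11 and 7.22 and 6.86 in rats 19 and 21. Endothelium and macrophage means were also lower in rats 2 and 11 than in rats 19 and 21. The mean of thick ascending limb and distal tubule genes went the other way, at 11.14 and 10.98 in rats 2 and 11 and 10.76 and 10.16 in rats 19 and 21. So did that of collecting duct genes, at 8.39 and 8.07 in rats 2 and 11 and 7.84 and 7.86 in rats 19 and 21. The means of proximal tubule, lymphocyte and tubule injury genes did not divide the rats in either way. The proximal tubule mean was 8.39 and 7.74 in rats 2 and 11 and 8.23 and 8.78 in rats 19 and 21. The part of these cell types in the division was not tested. Serpine2 and Serping1 were above the untreated range in CPM on both sides of it.

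**Figure D2:**
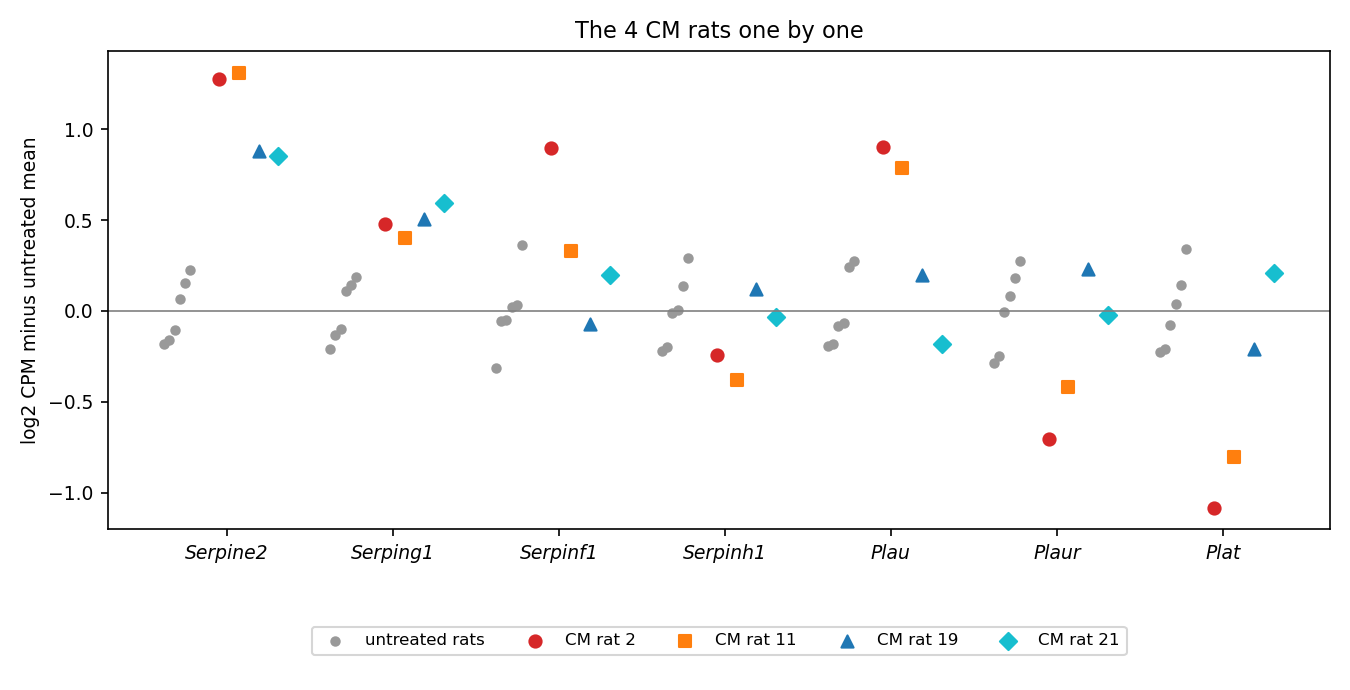
Level in each CM rat as log2 CPM minus the mean of the 6 untreated rats (vertical axis; 0 is that mean), for the 7 genes; grey points are the untreated rats and the coloured symbols the 4 CM rats. All 4 CM rats sit above the untreated rats for Serpine2 and Serping1. Rats 2 and 11 lie apart from rats 19 and 21 for Plau and Plat, and by less for Serpine2.

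The comparison of i.p. ASC with untreated rats asked whether cells in the peritoneum altered these genes, and it shares its untreated rats with the CM contrast. Values of those rats helped to choose the genes, so p-values against untreated rats are not independent of that choice. This holds for i.v. ASC rats as well, and most for Serping1. None of the 7 genes passed the threshold in the quasi-likelihood test of edgeR, adjusted by Benjamini-Hochberg over all 12867 genes, and neither did any other gene (0% of genes). DESeq2 called 0 of the 7 and 0 of all genes as well. At an unadjusted p below 0.05, 1 of the 7 passed, with 3.89% of all genes. This was Serping1, whose mean of 380.3 ± 54.8 CPM (SD, n = 6) in i.p. ASC rats compared with 307.8 ± 35.2 CPM (SD, n = 6) without treatment. Its log2 fold change was 0.31 (SE 0.10, 95% interval 0.09 to 0.52), with an unadjusted p = 0.0073 and an adjusted p = 0.771 from edgeR. The 2-sided exact permutation test of the rats gave p = 0.0281, where 0.0022 is the smallest it can give. The groups overlapped, since 2 i.p. ASC rats (301.2 CPM in rat 15 and 321.5 CPM in rat 16) were below the highest untreated rat.

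The remaining differences in i.p. ASC rats had 95% intervals that covered 0. Serpinh1 averaged 296.3 ± 39.3 TPM against 355.4 ± 57.4 TPM in untreated rats, a log2 fold change of -0.17 with an interval from -0.43 to 0.09. Plau averaged 724.1 ± 137 TPM against 617.2 ± 59.6 TPM, a log2 fold change of 0.33 with a 95% interval from -0.09 to 0.74, which was 0.065 with 1 surrogate variable in the fit. Plat averaged 118.0 ± 16.96 TPM against 144.1 ± 31.4 TPM, with an interval from -0.63 to 0.26. Serpine2 averaged 12.04 ± 3.48 TPM against 11.3 ± 1.68 TPM, with an interval from -0.28 to 0.62. Serpinf1 had the widest interval of the 7, from -0.17 to 0.97, and its 6 i.p. ASC rats ran from 136.6 to 388.8 TPM. Plaur had the smallest difference, a log2 fold change of -0.01 with an interval from -0.48 to 0.46.

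In i.v. ASC rats the same test also called 0 of the 7 genes and 0% of all genes, and DESeq2 called 0 of the 7 and 22 of all genes. At an unadjusted p below 0.05, 2 of the 7 passed, with 8.81% of all genes. Serping1 stood at 372.2 ± 51.3 CPM (SD, n = 6) in i.v. ASC rats, with a log2 fold change of 0.27 (SE 0.10, 95% interval 0.06 to 0.49), an unadjusted p = 0.0145 and an adjusted p = 0.523 from edgeR. The exact permutation test gave p = 0.0411. As in i.p. ASC rats, the untreated rats used here helped to choose Serping1, so nothing is concluded from its unadjusted p-values. Without the 4 rats with urothelial genes the log2 fold change was 0.37, and by limma-trend on log2(TPM + 1) it was 0.16, where the median of all genes was -0.12. Summed proximal tubule markers ran from 1135 to 3599 TPM in untreated rats, 1391 to 6391 TPM in i.p. ASC rats, 1854 to 7122 TPM in i.v. ASC rats and 3150 to 5978 TPM after CM. These markers did not all move alike. Of the 9, 6 were higher and 3 lower than in untreated rats in each cell group, and 7 were higher and 2 lower after CM. With the mean of these markers as a covariate the log2 fold change of Serping1 was 0.28 in i.p. ASC rats, 0.27 in i.v. ASC rats and 0.44 after CM.

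Plat was the other gene, with a lower mean in i.v. ASC rats. In the i.v. rats it was at 53.7 TPM in rat 9, 60.0 in rat 3, 88.5 in rat 13, 98.2 in rat 10, 129.9 in rat 8 and 159.9 in rat 14. In untreated rats it ran from 110.1 to 193.7 TPM with a median of 145.5. The log2 fold change was -0.45 (SE 0.21, 95% interval -0.89 to -0.0025), with an unadjusted p = 0.0488 and an adjusted p = 0.523 from edgeR, and the exact permutation test gave p = 0.0584. The 4 lowest i.v. rats were those with urothelial genes. Without them the fitted difference was 0.077, on the 2 rats left. Leaving out the 4 lowest rats had to raise it, so nothing about urothelial tissue is read from this. The 5 podocyte genes summed to 59.1 to 290.6 TPM in the i.v. rats and to 160.1 to 358.5 TPM in untreated rats.

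Serpinh1 was close behind in the i.v. group, at 275.4 ± 62.2 TPM against 355.4 ± 57.4 TPM in untreated rats. Its log2 fold change was -0.26 (95% interval -0.52 to 0.0037, unadjusted p = 0.0531 from edgeR, exact permutation p = 0.0974), and it was 0.020 without the 4 rats with urothelial genes. Plau had a log2 fold change of 0.25 with all rats (interval -0.17 to 0.66) and of -0.32 without those 4. Those 4 were the lowest i.v. rats for Serpinh1 and the highest for Plau. Both shifts were therefore bound to occur, and nothing is read from them. Serpine2 was at 4.37 and 7.58 TPM in rats 9 and 3 and between 12.7 and 16.3 TPM in the other i.v. rats, which gave a group mean of 11.3 ± 4.43 TPM and a log2 fold change of 0.10 (interval -0.35 to 0.55), or 0.33 without the 4 rats. Serpinf1 had a log2 fold change of 0.37 (interval -0.21 to 0.94), which was 0.048 without them. That of Plaur was 0.01 (interval -0.46 to 0.49) and 0.36 without them.

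The direct comparison of the routes, ASC i.p. against ASC i.v., used no rat of the CM contrast. It called 0 of the 7 genes (0% of all genes), and at an unadjusted p below 0.05 it called 0 of the 7 and 2.18% of all genes. DESeq2 called 0 of the 7 and 21 of all genes there. The largest of the 7 differences was that of Plat, which was higher in i.p. ASC rats by 0.26 on the log2 scale (95% interval -0.19 to 0.70, edgeR adjusted p = 1.0). Serping1 differed by 0.03, with an interval from -0.18 to 0.24. The interval of Serpine2 ran from -0.38 to 0.52. Without the 4 i.v. rats with urothelial genes, Plau had the largest difference of the 7, higher in i.p. ASC rats by a log2 fold change of 0.67 (unadjusted p = 0.0280, adjusted p = 0.898 from edgeR) against 0.08 with all rats. Plat was then -0.25, Serpinf1 0.38, Plaur -0.36, Serpinh1 -0.18, Serpine2 -0.15 and Serping1 -0.048. The 4 rats left out had the highest Plau levels of the i.v. group, so nothing is read from the larger Plau difference.

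**Figure D3:**
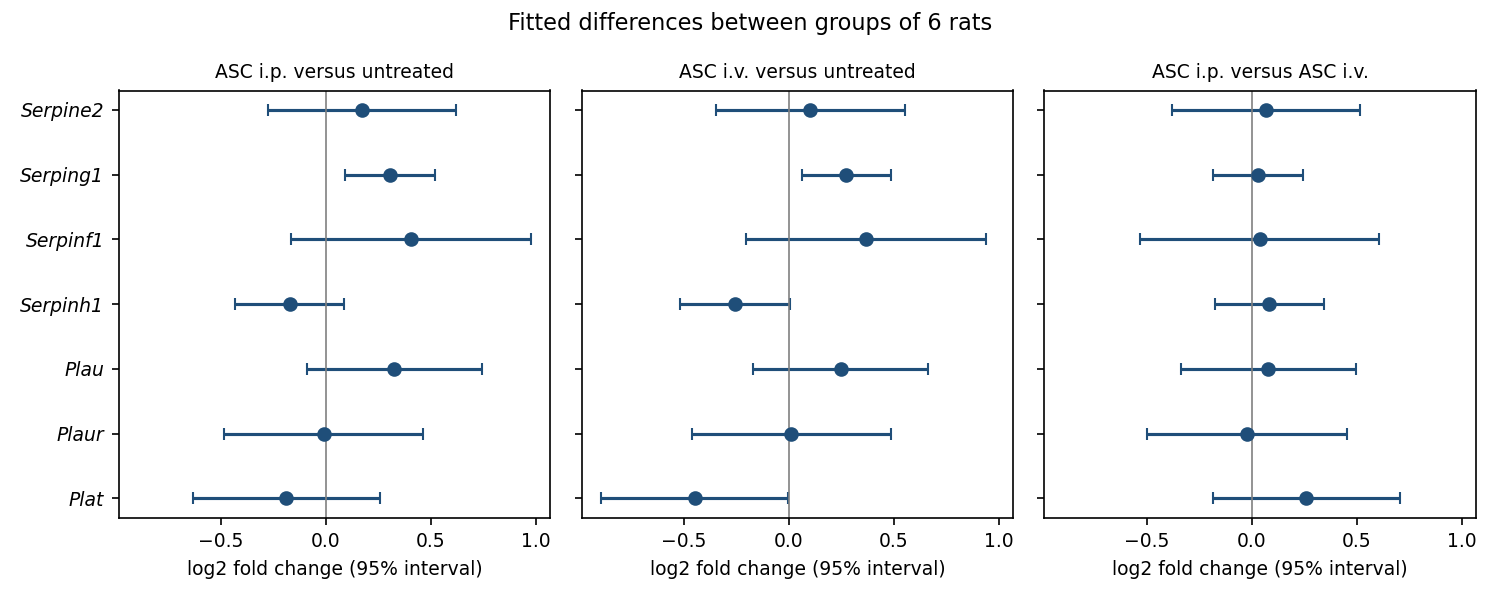
Fitted log2 fold change (horizontal axis, points) with its 95% interval (whiskers) for the 7 genes in the 3 comparisons among untreated, i.p. ASC and i.v. ASC rats, 6 rats a group. The intervals cover 0 except for Serping1 against untreated rats in both cell groups and, by a small margin, Plat in i.v. ASC rats. The untreated rats helped to choose the genes.

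Within groups, the levels of both activators, the receptor, HSP47 and PEDF were correlated across rats, with urokinase opposed to Plat, Plaur and Serpinh1. Levels of log2 CPM were taken as deviations from the group mean, so that no difference between groups entered, and the 21 pairs of the 7 genes were tested with 100000 permutations of rats within groups. Of these, 6 pairs passed an adjusted p below 0.05, both by Pearson's r and by Spearman's rho. None of the 6 pairs involved Serpine2 or Serping1. Left without the 4 CM rats, 0 of the 21 pairs passed the adjustment in the same permutation test, while r of the 6 pairs lay between -0.68 and 0.71 with the same signs and their unadjusted p between 0.0050 and 0.035.

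Plau and Plat ran opposite to each other, with r = -0.79 (permutation p = 0.00068, adjusted p = 0.0135) and rho = -0.72 (permutation p = 0.00247, adjusted p = 0.0173) over 22 rats. Without the 2 rats farthest from the median of Plau r was -0.69. The sign was the same within each of the 4 groups. Plau and Plaur were likewise opposed, with r = -0.70 (permutation p = 0.00129, adjusted p = 0.0135) and rho = -0.74 (permutation p = 0.00107, adjusted p = 0.0149), and r was -0.68 without the 2 farthest rats. Within the groups of 6 this r was -0.64 in untreated rats, -0.61 in i.p. ASC rats and -0.82 in i.v. ASC rats. Kidneys rich in urokinase RNA were thus poor in that of its receptor and of the other activator.

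Plat and Plaur varied together, with r = 0.55 (permutation p = 0.00774, adjusted p = 0.0295) and rho = 0.64 (permutation p = 0.00514, adjusted p = 0.0216), and with r = 0.80 without the 2 farthest rats. This held in untreated rats (r = 0.82) and in i.v. ASC rats (0.79) but was -0.12 in i.p. ASC rats. Serpinh1 followed Plat, with r = 0.70 (permutation p = 0.00459, adjusted p = 0.0244) and rho = 0.68 (permutation p = 0.00416, adjusted p = 0.0216), but r was 0.54 without the 2 farthest rats and no longer passed (permutation adjusted p = 0.102), so the call rested on those rats. Serpinh1 ran opposite to Plau, with r = -0.64 (permutation p = 0.00464, adjusted p = 0.0244), rho = -0.69 (permutation p = 0.00142, adjusted p = 0.0149) and r = -0.67 without the 2 farthest rats.

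Serpinf1 varied with Plau, with r = 0.61 (permutation p = 0.00843, adjusted p = 0.0295), rho = 0.59 (permutation p = 0.0141, adjusted p = 0.0492) and r = 0.53 without the 2 farthest rats. This call too rested on those rats (permutation adjusted p = 0.102 without them) and was lost on log2(TPM + 1), with r = 0.41 and a permutation adjusted p = 0.137. Serpinf1 and Serping1 had r = 0.57, which did not pass (permutation p = 0.0193, adjusted p = 0.0579). For Serpine2 the 6 values of r lay between -0.38 with Serpinf1 and 0.35 with Serpinh1, and none passed.

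**Figure D4:**
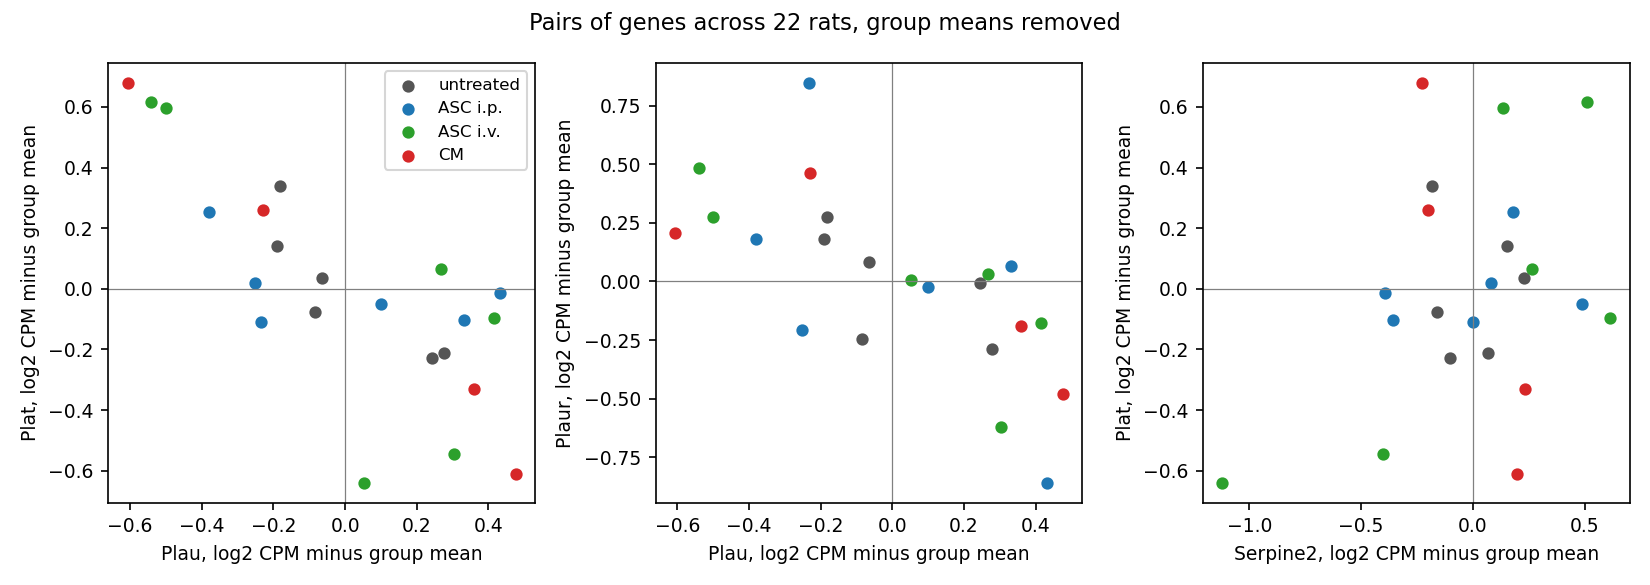
Deviation of log2 CPM from the group mean for Plat against Plau (left), Plaur against Plau (middle) and Plat against Serpine2 (right); each point is a rat, coloured by group. Points fall from upper left to lower right for Plau with Plat (r = -0.79) and Plau with Plaur (r = -0.70), and scatter for Serpine2 with Plat (r = 0.32).

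Markers of cell types moved with the same genes, over the same 22 libraries and pieces of kidney. These values describe the rats and were given no test. Plat followed the mean of the 5 podocyte genes most closely (r = 0.89), then endothelium (0.78), macrophage (0.74) and fibroblast genes (0.71). Plau ran against podocyte (-0.82) and fibroblast genes (-0.75) and with those of thick ascending limb and distal tubule (0.60). Plaur followed macrophage genes (0.79) and fibroblast genes (0.70).

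Serpinh1 was highest in kidneys rich in fibroblast (r = 0.71) and endothelium genes (0.69) and low in those with urothelial genes (-0.72). Serpinf1 followed proximal tubule genes (0.69) and ran against fibroblast (-0.68) and macrophage genes (-0.67), and Serping1 also went with proximal tubule (0.53). Serpine2 was the least tied to any marker mean on the positive side, with endothelium at 0.48 as the highest, and stood at -0.51 with urothelial genes. The part of tissue makeup in the correlations between the 7 genes was not tested.

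**Figure D5:**
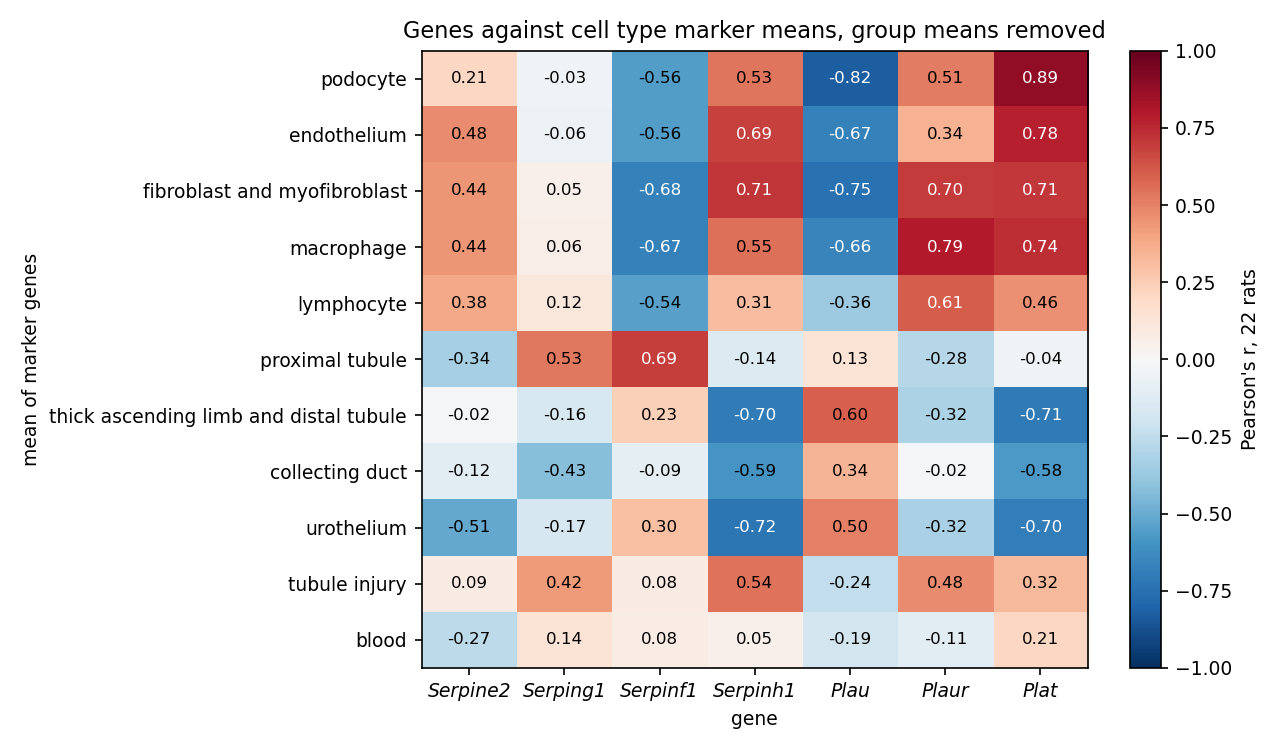
Pearson's r over 22 rats, group means removed, between the log2 CPM of each of the 7 genes (columns) and the mean log2 CPM of the marker genes of a cell type or state (rows); red is positive and blue is negative. Plat is most tied to podocyte markers (0.89), Plau is most opposed to them (-0.82), and Serping1 and Serpine2 have the palest columns.

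The genes most like each of the 7 were taken by Spearman's rho of the same deviations over the 22 rats, among the genes tested. For Plau these were Ggact (rho = 0.96), Cldn10 (0.95), a claudin of thick ascending limb and proximal tubule, and Pld1 (0.94). For Serpinf1 they were Mrps25 (0.96), Decr1 (0.96) and Acadl (0.95), which encode a mitochondrial ribosomal protein and 2 enzymes of fatty acid oxidation. Plat was most like Ctsf (0.92), Ets2 (0.92) and Ptpro (0.91), a phosphatase of the podocyte. Plaur was most like Pira2 (0.89), Mmp12 (0.88), the macrophage elastase, and Bcl3 (0.87).

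Serpinh1 was most like Igfbpl1 (0.87), Myrf (0.87) and Col4a1 (0.85), a chain of the basement membrane collagen that needs a chaperone such as HSP47. Serping1 and Serpine2 had looser neighbours. Those of Serping1 were Cd302 (0.79), Paox (0.79) and Azin2 (0.76), of which the last 2 belong to polyamine metabolism. Those of Serpine2 were Abhd16a (0.75), Galnt16 (0.74) and Cox4i2 (0.73).

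Around the 7 genes, the wider plasminogen system comprised 23 listed genes, of which 22 were in the files and 18 were tested. Plasminogen itself was close to absent, at a mean of 0.062 TPM over the 22 rats and a highest rat of 0.206 TPM. The most abundant were S100a10 (1034 TPM) and Anxa2 (508.2 TPM), which together form a cell-surface plasminogen receptor, with Eno1 (927.5 TPM), an enolase that can bind plasminogen, and Hpn (214.4 TPM), a membrane protease. In the CM comparison edgeR called 0% of all genes and DESeq2 called 5. None of the 18 passed in any of the 4 comparisons with either tool. At an unadjusted p below 0.05 edgeR called 0 of them in i.p. ASC rats (3.89% of all genes) and 0 in i.v. ASC rats (8.81% of all genes). Their median log2 fold change was 0.02 in i.p. ASC rats, 0.07 in i.v. ASC rats and 0.004 after CM, where the medians over all genes tested were -0.01, -0.01 and -0.003. Without the 4 i.v. rats with urothelial genes the median in i.v. ASC rats was 0.18, where that of all genes was -0.02.

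The other 34 serpins in the files included 15 that were tested, and none of them passed in any comparison with edgeR. At an unadjusted p below 0.05, 0 of the 15 passed in i.p. ASC rats (3.89% of all genes) and 3 in i.v. ASC rats (8.81% of all genes), all higher. Of the 15, 0 passed in i.v. ASC rats without the 4 with urothelial genes, where 2.31% of all genes did. DESeq2 called 1, Serpinb5 (maspin, a serpin of epithelia such as urothelium), which was lower in i.p. than in i.v. ASC rats by a log2 fold change of -2.43 (SE 0.59, DESeq2 adjusted p = 0.0344). By edgeR its log2 fold change was -2.41 with all rats and -0.39 without those 4. The highest by level were Serpinf2 (147.5 TPM), the plasmin inhibitor antiplasmin, Serpinb6a (146.4 TPM) and Serpinb1a (99.3 TPM). Serpinf2 averaged 80.8 ± 39.7 TPM (SD, n = 6) in untreated rats, 170.1 ± 126 TPM (SD, n = 6) in i.p. ASC rats, 164.9 ± 112 TPM (SD, n = 6) in i.v. ASC rats and 187.4 ± 129 TPM (SD, n = 4) after CM. Its log2 fold changes of 1.18 with i.p. cells and 1.15 with i.v. cells had adjusted p-values of 0.771 and 0.523 from edgeR, and the latter was -0.45 without those 4 rats. Serpina12 and Serpinb9d were listed at 0 in all 22 rats.

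The proteases and cascades that Serping1 acts on gave 18 genes, 15 of them tested, and none passed with edgeR or DESeq2. At an unadjusted p below 0.05 edgeR called 0 in i.p. ASC rats (3.89% of all genes) and 2 in i.v. ASC rats (8.81% of all genes), 1 in each direction. The most abundant were C4a (467.0 TPM), C1qa (201.2 TPM), C1r (154.1 TPM) and C1s (144.1 TPM), the last 2 being the direct targets of C1 inhibitor. C1r and C1s had log2 fold changes of -0.01 and 0.04 in i.p. ASC rats and of -0.07 and 0.004 in i.v. ASC rats. The median of the 15 was 0.02 in i.p. ASC rats, 0.004 in i.v. ASC rats and 0.11 after CM. Without the 4 i.v. rats with urothelial genes, C1r and C1s were 0.56 and 0.69 in i.v. ASC rats, and the median was 0.22. In that fit 0 of the 15 had an unadjusted p below 0.05 from edgeR (2.31% of all genes).

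Collagens and collagen folding genes, which Serpinh1 serves, comprised 17 tested genes, with none past the threshold of edgeR or DESeq2, and with 0 in i.p. ASC rats (3.89% of all genes) and 2 lower in i.v. ASC rats (8.81% of all genes) at an unadjusted p below 0.05 from edgeR. Ppib (677.9 TPM) and P4hb (353.3 TPM), which fold and hydroxylate collagen, were the most abundant, then Col4a1 (145.3 TPM) and Col3a1 (106.4 TPM). Lower values in i.v. ASC rats were found for 12 of the 17, with a median of -0.13, and in i.p. ASC rats for 13 of the 17, with a median of -0.08. Col4a1 averaged 187.6 ± 62.7 TPM in untreated rats and 121.2 ± 38.8 TPM in i.v. ASC rats, which gave -0.52 on the log2 scale with an adjusted p = 0.523 from edgeR. Without the 4 i.v. rats with urothelial genes Col4a1 was -0.13 and the median of the 17 was 0.13, with 6 of them lower. The 2 genes then at an unadjusted p below 0.05 from edgeR (2.31% of all genes) were higher.

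The 5 partners of PEDF and 7 genes of growth factor activation were all tested, and none passed with edgeR or DESeq2. Against untreated rats, none had an unadjusted p below 0.05 from edgeR in i.p. ASC rats (3.89% of all genes) or i.v. ASC rats (8.81% of all genes). Among the partners Rpsa (2542 TPM), Pnpla2 (48.4 TPM), Plxdc2 (45.3 TPM) and Lrp6 (11.1 TPM) were the most abundant, and their median log2 fold change was -0.02 in i.p. ASC rats and in i.v. ASC rats. Spint2 (1666 TPM) and Spint1 (85.1 TPM), inhibitors of the proteases that activate hepatocyte growth factor, stood with Tgfb1 (113.0 TPM) and Met (29.1 TPM) at the top of the growth factor list, whose median was -0.10 in i.p. ASC rats and -0.14 in i.v. ASC rats. In i.v. ASC rats these medians were -0.04 for the partners and 0.09 for the growth factor list without the 4 rats with urothelial genes. Of the 62 marker genes tested, edgeR called 0 in each comparison, and at an unadjusted p below 0.05 it called 0 in i.p. ASC rats (3.89% of all genes) and 12 in i.v. ASC rats (8.81% of all genes), or 6 without those 4 rats (2.31% of all genes). DESeq2 called 4, the urothelial genes Upk1a, Upk1b, Upk3a and Psca, in i.v. ASC rats against untreated and against i.p. ASC rats. None of the markers was listed at 0 in all rats.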

How the data were processed

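Total RNA of the left kidney was sequenced on the BGISEQ-500 platform. Per the labels, reads were trimmed with Trim Galore 0.6.4 and quantified with kallisto 0.4.6, with rn6 as the genome build. The authors deposited an estimated count per rat Entrez gene, without normalization, and a TPM value, which the authors scaled by transcript length and total (sums of 959754 to 968550 per rat). Of the counts, 14.1% were not whole, and they were rounded here. Symbols came from RefSeq (GRCr8) for 17179 of 17334 genes. Reads shared by paralogs, such as C4a and C4b, and by overlapping genes are uncertain.

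Groups and animal numbers came from the labels. Testing used edgeR 4.0.16 in R 4.3.3 (TMM, filterByExpr, quasi-likelihood F test, all 22 rats in 1 fit, Benjamini-Hochberg over 12867 genes, threshold 0.05), and log2 CPM used a prior count of 2. The procedure was tested on simulated data. The alternatives replaced the test by DESeq2 1.42.0, the scaling by RLE, and the filter by none (15275 genes) or by a minimum of 10 counts in each rat. They also fitted a pair of groups alone, and added 1 surrogate variable (sva 3.50.0). Others were the proximal tubule mean as a covariate, limma-trend (limma 3.58.1) on log2(TPM + 1) and log2(TPM + 0.1), exact permutation tests and the omission of each rat. The fit without the 4 i.v. rats with urothelial genes was added after the data were seen. Intervals are 95% intervals of the fit. The labels name no batch, and replicates are separate animals, so nothing was paired. Podocyte means ran with rat number in i.p. ASC rats, at 5.45 to 5.56 log2 CPM in rats 5, 6 and 7 and 6.09 to 6.48 in rats 15, 16 and 17. They rose with rat number in CM rats too, from 4.27 in rat 2 and 4.50 in rat 11 to 6.00 in rat 19 and 6.69 in rat 21. Untreated rats 1, 12 and 18 had 5.75 to 6.04, and untreated rats 22, 23 and 24 had 6.27 to 6.76. In i.v. ASC rats the order was mixed, with 5.99 in rat 8 and 4.75 in rat 13. The division of the CM rats described above thus ran with rat number. Whether rat numbers follow a batch is not known and was not tested.

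The 7 genes, the gene lists and the markers were chosen with earlier results of these data known, and the promoter letters with the sequences in view. The text names the 7 genes, the 4 most abundant genes of each list unless some passed, the 3 genes most like each of the 7, and markers at 0. A gene that this rule also covers is not reported here. Plasminogen, Serpinb5, Serpinb9d, Serpina12 and the urothelial genes were named after their values were seen. Itgav, Col4a2, Col6a1, Col6a3 and Cd79a of the lists were not analysed here.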

Additional observations from a re-analysis of the deposited data

Results flagged for a closer look

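Plat in i.p. ASC rat 16 stood apart from the other 5 rats of its group, at 8.04 log2 CPM against 7.68 to 7.81 (263.3 CPM, 144.9 TPM). The gap to the nearest rat was 0.646 of the range of the group, above the 95% critical value of 0.625 for 6 rats. It was the only one of 28 groups (7 genes in 4 groups of rats) that did so, and chance alone gives about 1 in 20.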

How the results depend on the processing

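None of the 7 genes passed an adjusted p below 0.05 in the 3 comparisons among untreated, i.p. and i.v. ASC rats under any alternative run. Over all genes edgeR called 0 in each comparison, whereas DESeq2 called 0 in i.p. ASC rats, 22 in i.v. ASC rats, 5 after CM and 21 between the routes, the fit of only the 2 groups called 1 after CM, and 1 surrogate variable called 4 between the routes. The number of correlated pairs of genes was 6, and it was 0 without the CM rats, 4 without the 2 rats farthest from the median, 9 with group means not removed, 8 on log2(TPM + 1) and 6 with a prior count of 0.5. On the TPM scale the median log2 fold change of all genes was -0.10 in i.p. ASC rats and -0.12 in i.v. ASC rats with log2(TPM + 1), and -0.11 and -0.13 with log2(TPM + 0.1), so changes there are to be read against these shifts. The cause of the reversals below was not tested, and each concerned a difference that had not passed. With 1 surrogate variable the sign turned in i.p. ASC rats for Plat (0.070), Serpinf1 (-0.011) and Plaur (0.18), and in i.v. ASC rats for Plau (-0.059) and Serpinf1 (-0.037). It moved others by over 1.5 times with the same sign, in i.p. ASC rats to 0.065 for Plau, -0.058 for Serpinh1 and 0.26 for Serpine2, and in i.v. ASC rats to -0.23 for Plat, -0.13 for Serpinh1, 0.20 for Serpine2 and 0.24 for Plaur. On log2(TPM + 1) and log2(TPM + 0.1) the sign turned in i.v. ASC rats for Serpine2 (-0.091 and -0.11) and Plaur (-0.12 and -0.13). Plaur in i.p. ASC rats was 0.0014 with DESeq2 and with RLE size factors, and in i.v. ASC rats it was -0.0058 with the proximal tubule covariate and -0.013 as the difference of means in the exact test. Between the routes Serpinf1 was -0.089 with that covariate and -0.020 in the exact test. Without the 4 i.v. rats with urothelial genes, Plau was -0.32, Plat 0.077 and Serpinh1 0.020 in i.v. ASC rats, and between the routes Plat was -0.25, Serpinh1 -0.18, Serpine2 -0.15 and Serping1 -0.048.

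With each rat left out in turn, Plaur ran from -0.23 to 0.13 in i.p. ASC rats and from -0.10 to 0.11 in i.v. ASC rats, and Serpine2 from -0.025 to 0.26 in i.v. ASC rats. Between the routes Plau ran from -0.015 to 0.16, Serpinf1 from -0.20 to 0.25, Serpine2 from -0.087 to 0.20, Serping1 from -0.0096 to 0.10 and Plaur from -0.24 to 0.11. The largest turns came from i.p. ASC rat 5 for Plaur and Serpinf1 and from i.v. ASC rat 9 for Serpine2. Serpine2 and Plaur, with 89 to 493 and 67 to 222 reads a rat, carry the largest counting error of the 7.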
